A study of Mus musculus with 3 samples.

Results

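A set of 45 mouse genes that license, start and carry out DNA replication was followed across 3 RNA-seq libraries, 1 for each sorted cell population. The members were named by function, from the loading of the replicative helicase to the supply of nucleotides, and all 45 were found among the 22238 genes that the 3 gene-level tables share. The mice were wild type (WT in the labels) C57BL/6J animals, 10 to 12 weeks old, and all carried experimental autoimmune encephalomyelitis (EAE), an inflammatory demyelinating disease of the central nervous system. Disease was induced by a subcutaneous emulsion of myelin oligodendrocyte glycoprotein peptide in complete Freund's adjuvant with intraperitoneal pertussis toxin (250 ng), and cells were taken on days 14 to 15. There was no library from mice without EAE.

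The bone marrow monocytes (13 mice from 2 experiments, pooled) were enriched with a monocyte isolation kit and sorted as CD45+ CD11b+ Ly6Chi Ly6G- CD11c- cells. The spinal cord monocytes (18 mice from 3 experiments, pooled) were sorted as CD45+ CD11b+ CD64+ Ly6Chi Ly6G- cells after collagenase digestion and a density gradient. The monocyte-derived antigen-presenting cells (APCs) came from the same number of mice and experiments and were sorted in the same way but with low or no Ly6C. One label of the APC library names bone marrow as the source, whereas its title and tissue label name the spinal cord, and it is described here as spinal cord. The libraries held 33280643, 27283795 and 28209589 estimated reads in the order bone marrow monocytes, spinal cord monocytes, APCs, which is used for triplets of values below. Each population has a single pooled library, so no difference below has a replicate check and every interval covers counting error only. Copies made by PCR are not independent molecules, so the intervals are narrower than the error of a repeated experiment. The defining monocyte markers were present in all 3 libraries, with Ly6c2, the surface antigen used in the sort, at 5205, 3602 and 1067 TPM and Ccr2, the chemokine receptor of inflammatory monocytes, at 1629, 299 and 139 TPM.

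Replication begins in G1, when the origin recognition complex (ORC), Cdc6 and Cdt1 load the hexameric Mcm2-7 helicase onto chromatin, a step called licensing. At the entry to S phase the kinases Cdc7-Dbf4 and cyclin E-Cdk2 fire licensed origins, and Cdc45 and the GINS complex join Mcm2-7 to form the active helicase. Most of these genes are transcribed in a burst around the G1/S transition under E2F factors, which are held by the retinoblastoma protein family in resting cells. Bone marrow holds dividing monocyte precursors, while mature monocytes in blood and tissue rarely divide.

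On the rescaled level described next, all 45 genes were highest in bone marrow monocytes. In the fold changes from reads, given below, E2f1 was the exception, with a median above 0 in APCs against marrow. Levels are given as TPM, a read count divided by transcript length and library total, rescaled so that the shared genes sum to the same total in each library. The summed level of the 45 genes was 2091 TPM in the marrow library, 578 TPM in cord monocytes and 532 TPM in the APC library, or 0.209%, 0.0578% and 0.0532% of the total. The order of the spinal cord libraries turned with the scale. In TPM as deposited, before rescaling over the shared genes, the APC sum was the higher one (532 against 493), and the members took 0.311%, 0.0717% and 0.0832% of reads. The median member had 29.6, 6.79 and 7.33 TPM across the libraries. Over 10 TPM were reached by 41 genes in the marrow library but by only 18 and 17 genes in the spinal cord libraries. The lowest level lay in spinal cord monocytes for 32 genes and in APCs for 13. The replication genes of the 2 spinal cord libraries were close to each other and below those of the marrow library. In bulk RNA, fewer cells in S phase and less of each transcript per cell cannot be told apart.

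**Figure D1:**
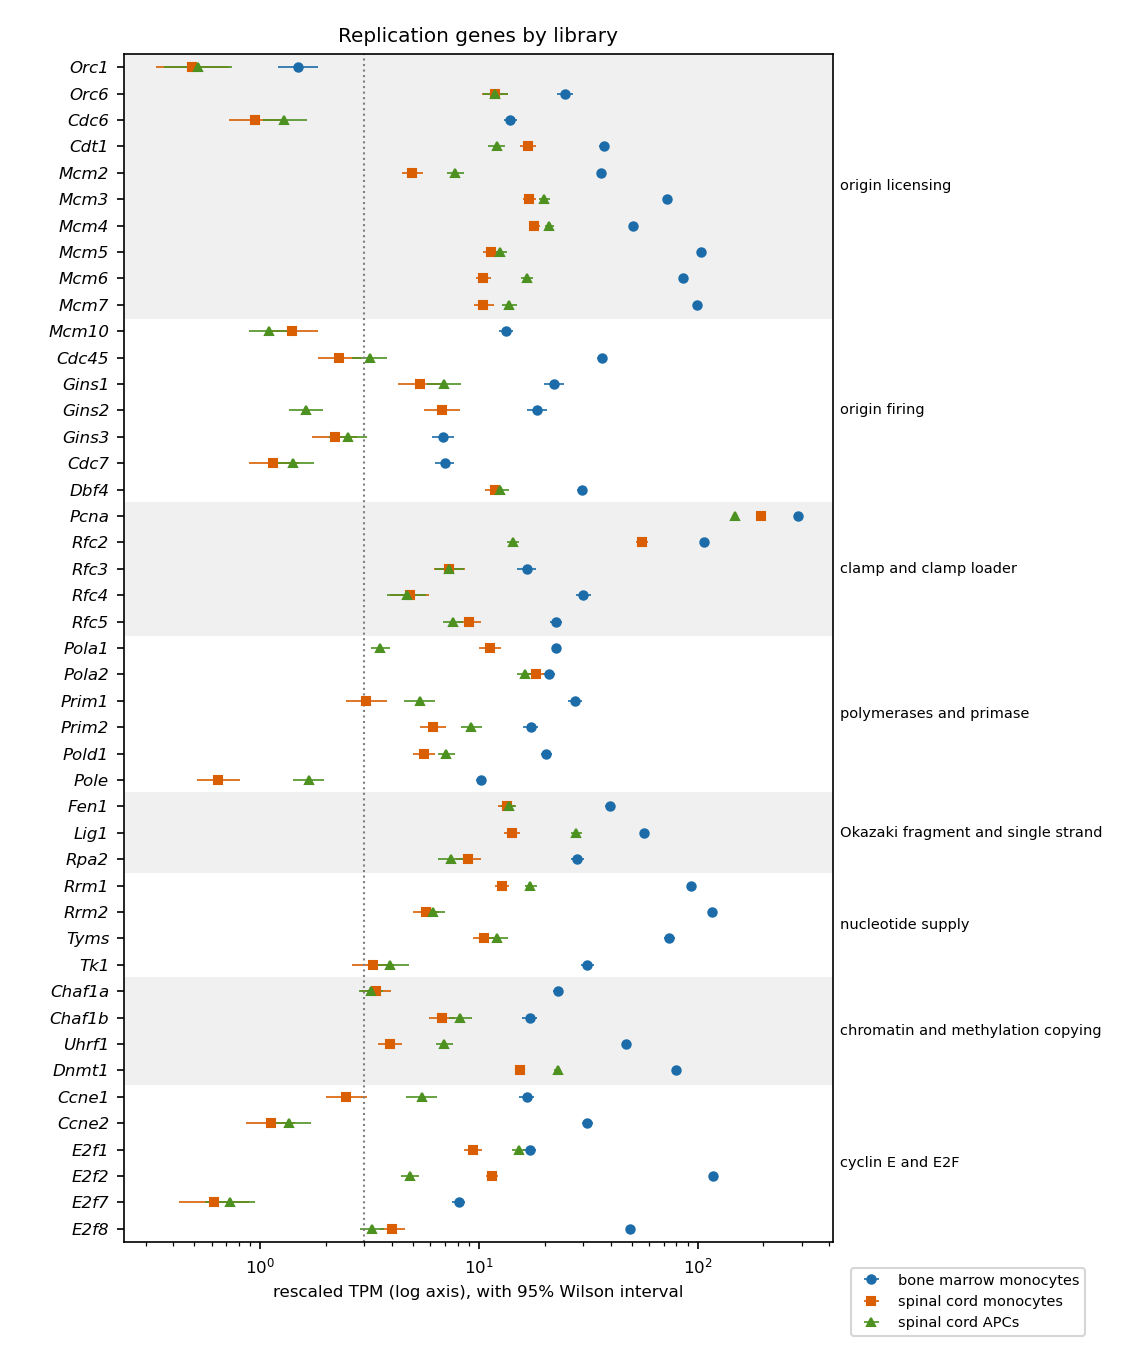
Level of each of the 45 genes in the 3 libraries, on a log axis of rescaled TPM with 95% Wilson intervals for counting error. Genes are grouped by role, and the dotted line marks 3 TPM, above which a gene was taken as active. The marrow symbol lies to the right of both spinal cord symbols in every row.

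Fold changes were computed from reads, scaled by median-of-ratios size factors, and given as log2 values with a 98% interval (percentiles 1 to 99). A gene was called lower or higher where that whole interval lay beyond a 2-fold change and the gene was active in at least 1 of the compared libraries. In spinal cord against bone marrow monocytes, 33 of the 44 active replication genes were called lower and 0 higher, where 10.7% of the 10072 active genes were called lower and 13.8% higher. The median log2 fold change of the active members was -2.10, against -0.15 over all active genes. Individual changes ran from -4.34 for E2f7 to -0.23 for Pola2, and the interval of all 45 genes lay below 0. In APCs against bone marrow monocytes, 28 of 44 active members were called lower and 0 higher. Of the 10190 active genes, 11.8% were called lower and 14.0% higher. The median of the active members was -1.80, against -0.17 over all active genes. The 2 comparisons share the marrow library and are not independent of each other.

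**Figure D2:**
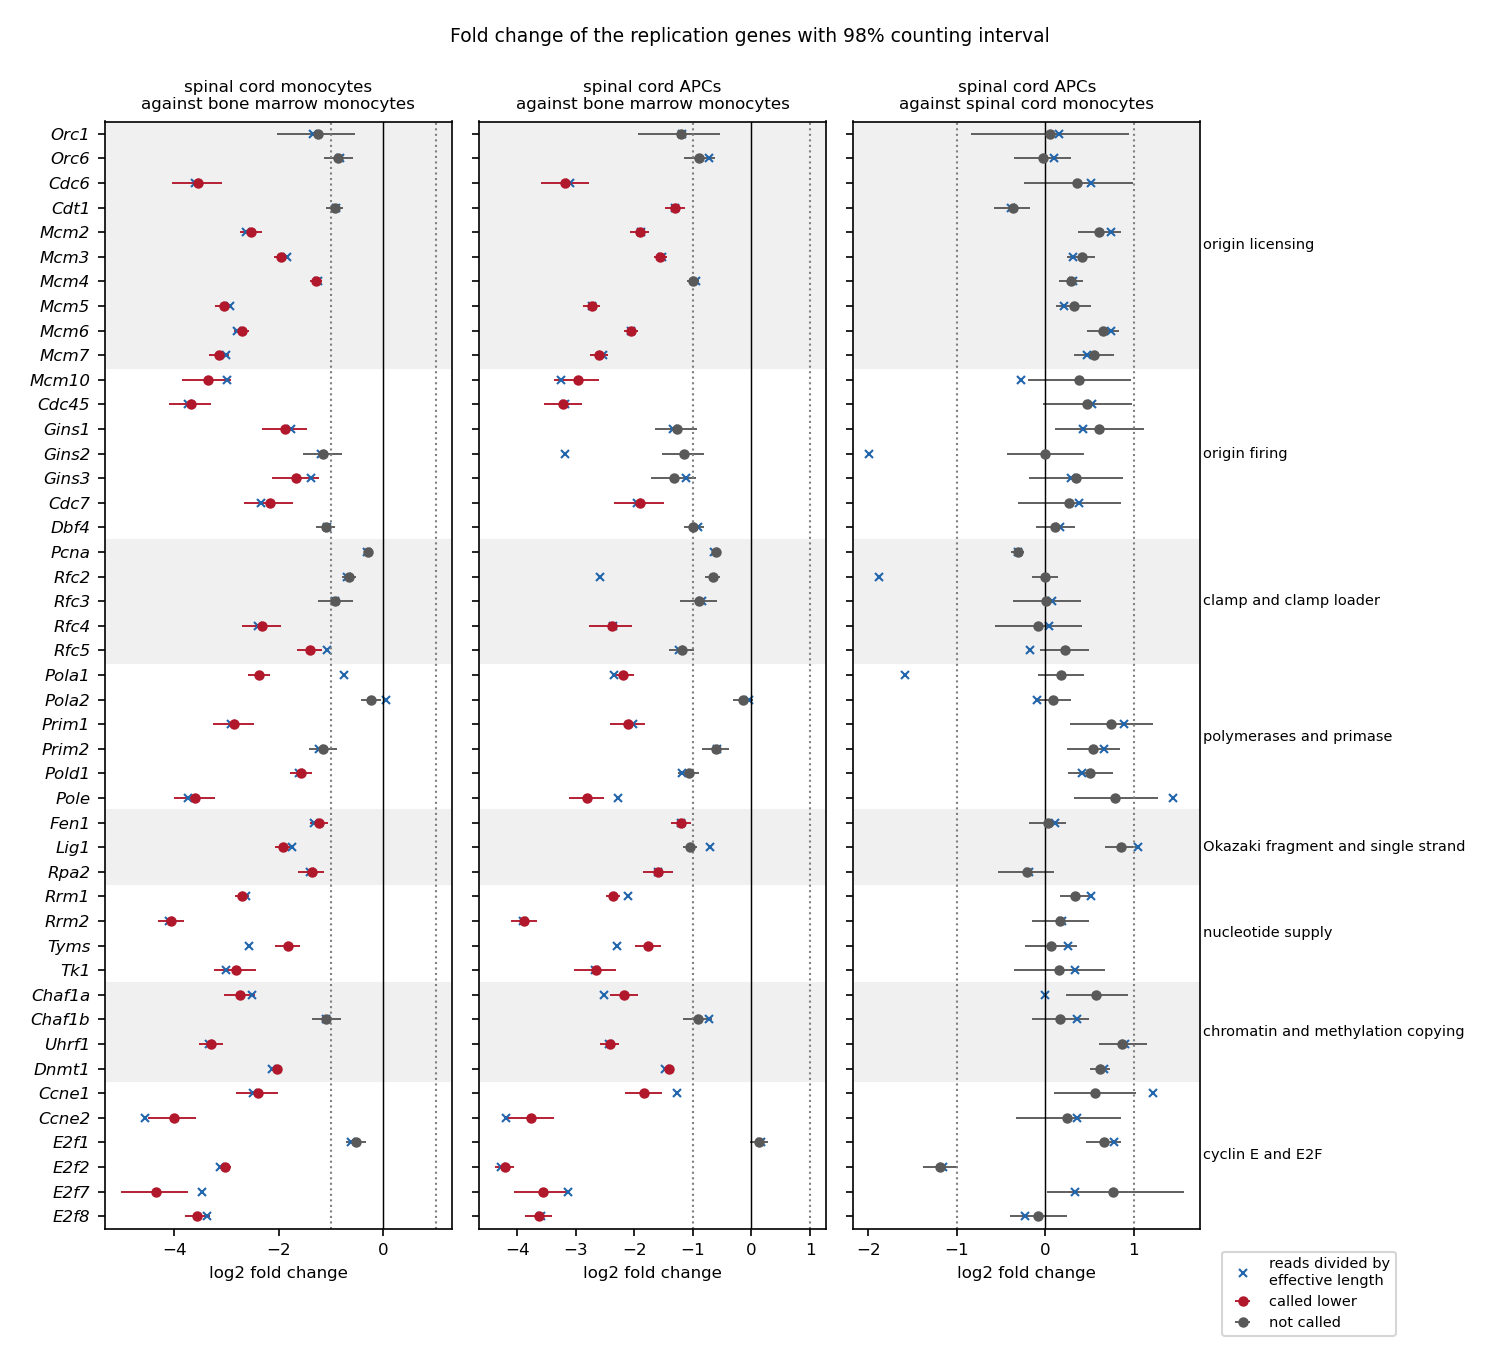
Log2 fold change of the 45 genes in the 3 comparisons, computed from reads, with 98% counting intervals. Red points were called lower, grey points were not called, crosses give the same change from reads divided by effective length, and dotted lines mark a 2-fold change. The left and middle panels lie almost wholly below 0, while the right panel, APCs against spinal cord monocytes, lies around 0.

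The promoters of these genes were read for 4 short motifs, because E2F control is the textbook link among them. RefSeq windows of 300 bases (250 before to 50 after the annotated start, build GRCm38.p6) were at hand for 38 of the 45 genes. The 8-letter E2F-type words TTTCGCGC, TTTGGCGC and TTTCCCGC, searched on both strands, occurred in 16 of these 38 genes (42.1%), against 573 of the 27025 genes with a window (2.12%). The same words without their first letter occurred in 25 members (65.8%) against 9.20% of all genes. The member windows were also richer in G and C, with a median of 61.3% against 52.7% over all windows, and the part of base composition in the motif shares was not tested. The promoters of 6 members are printed to show where the words lie, each as the 250 bases before the start in the direction of transcription, with the 8-letter matches in capitals. Mcm5 (chr8:75109259-75109508, plus strand) and Mcm6 (chr1:128359706-128359955, minus strand) each hold a pair of words on opposite strands that overlap by 4 bases, and Mcm6 holds another nearer the start. Gins3 (chr8:95633309-95633558, plus strand), Cdc6 (chr11:98907901-98908150, plus strand) and Orc1 (chr4:108579204-108579453, plus strand) hold 1 word each. The stretches of Cdc6 and Orc1 lie inside the annotated genes, which begin at bases 98907709 and 108575705, so they precede an internal start. The end of the Mcm5 stretch also overlaps its gene, which begins at base 75109468. Rrm2 (chr12:24708004-24708253, plus strand), the member with the second largest fall, has none of these letters in its window.
Mcm5: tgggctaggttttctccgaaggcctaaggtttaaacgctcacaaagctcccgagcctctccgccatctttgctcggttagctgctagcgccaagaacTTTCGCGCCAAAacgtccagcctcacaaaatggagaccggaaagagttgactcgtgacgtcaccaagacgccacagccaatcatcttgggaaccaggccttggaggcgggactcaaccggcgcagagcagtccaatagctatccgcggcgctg
Mcm6: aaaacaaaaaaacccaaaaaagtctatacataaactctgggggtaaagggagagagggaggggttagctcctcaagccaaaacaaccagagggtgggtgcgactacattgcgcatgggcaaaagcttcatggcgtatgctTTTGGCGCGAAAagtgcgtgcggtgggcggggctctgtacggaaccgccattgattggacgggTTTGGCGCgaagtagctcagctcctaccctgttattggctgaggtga
Gins3: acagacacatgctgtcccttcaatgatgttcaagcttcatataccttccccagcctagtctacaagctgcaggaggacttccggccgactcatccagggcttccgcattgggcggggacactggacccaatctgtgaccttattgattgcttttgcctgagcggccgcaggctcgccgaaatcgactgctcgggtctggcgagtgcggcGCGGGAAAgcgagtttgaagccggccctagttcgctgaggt
Cdc6: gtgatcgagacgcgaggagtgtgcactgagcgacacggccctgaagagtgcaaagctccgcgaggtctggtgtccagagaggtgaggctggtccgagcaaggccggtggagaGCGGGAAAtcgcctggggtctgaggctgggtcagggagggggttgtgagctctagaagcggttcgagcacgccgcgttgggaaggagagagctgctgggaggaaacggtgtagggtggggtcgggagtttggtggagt
Orc1: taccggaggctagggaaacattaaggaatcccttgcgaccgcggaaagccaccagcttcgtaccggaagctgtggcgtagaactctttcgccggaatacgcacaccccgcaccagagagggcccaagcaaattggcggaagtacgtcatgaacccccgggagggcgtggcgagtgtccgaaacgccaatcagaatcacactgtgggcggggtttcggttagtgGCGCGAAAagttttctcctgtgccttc
Rrm2: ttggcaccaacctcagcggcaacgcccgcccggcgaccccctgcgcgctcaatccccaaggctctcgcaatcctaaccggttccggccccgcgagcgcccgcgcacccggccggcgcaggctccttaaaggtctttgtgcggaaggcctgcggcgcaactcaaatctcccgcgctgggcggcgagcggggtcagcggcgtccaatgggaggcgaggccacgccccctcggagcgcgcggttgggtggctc

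Matches were found both among the members called lower and among those not called, whose intervals also lay below 0. An 8-letter word lay in 13 of the 29 genes called lower that have a window and in 3 of the 9 others, Orc1, Cdt1 and Rfc3. Of the 23 matches in members, 4 began in the last 100 bases before the start, 10 further upstream and 9 after it. The list of other subunits of the same complexes, to which Mcm8, Mcm9 and Mcmbp were added, carried the 8-letter words in 6 of 17 genes (35.3%). Mitosis genes carried them in 1 of 25 genes (4.0%) but held the CHR word TTTGAA, the cell cycle homology element of G2/M promoters, in 17 of 25 (68.0%). The CHR word was found in 9 of 38 members (23.7%) and in 20.2% of all genes. CCAAT, the NF-Y box, occurred in 60.5% of members, 76.0% of mitosis genes and 41.1% of all genes. A match is a description of letters and not evidence of binding.

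**Figure D3:**
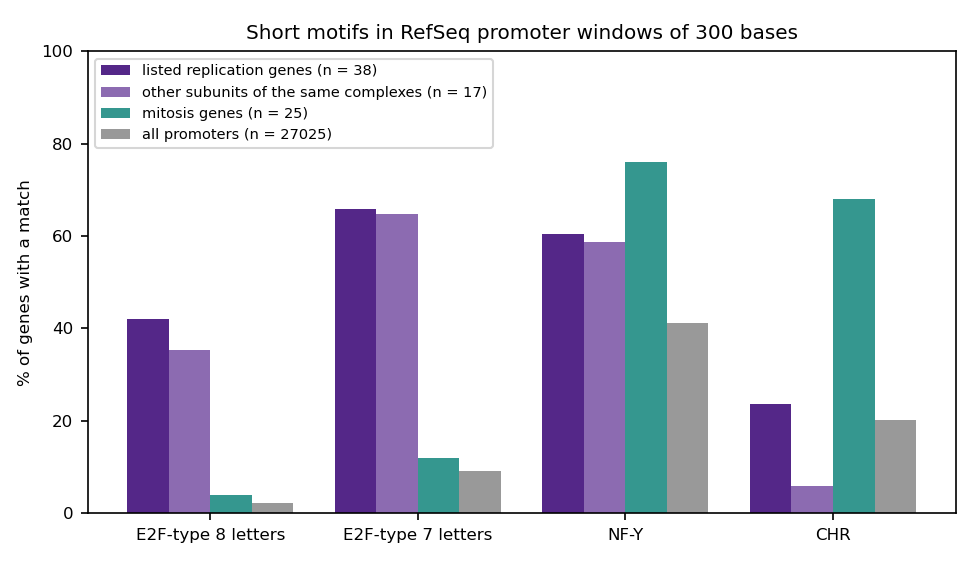
Share of genes with at least 1 match on either strand in RefSeq windows of 300 bases. Groups are the listed replication genes, the other subunits of their complexes, mitosis genes and all genes with a window. The list of other subunits also holds Mcm8, Mcm9 and Mcmbp. The 8-letter E2F-type words reach 42.1% of the replication genes and 4.0% of the mitosis genes, and the CHR word 23.7% and 68.0%.

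Among the 10 licensing genes, the helicase fell as a whole. All 6 genes of Mcm2 to Mcm7 were called lower in spinal cord monocytes, with a median log2 fold change of -2.62, and their summed level went from 449 TPM in marrow to 72.3 and 91.7 TPM. Mcm5 was read at 104, 11.4 and 12.5 TPM in the 3 libraries, a change of -3.05 (-3.21 to -2.89) in spinal cord monocytes. Mcm7 followed at 99.8, 10.5 and 13.8 TPM (-3.15, -3.34 to -2.96). The shallowest change of the 6 was that of Mcm4, at 50.6, 17.9 and 21.0 TPM (-1.28, -1.40 to -1.17). The proteins assemble in equal numbers. On the TPM scale, the most abundant of the 6 transcripts exceeded the least abundant by 2.87-fold in marrow, and by 3.60-fold and 2.69-fold in the cord libraries. Mcm2 was the lowest of the 6 in every library (36.2, 4.97 and 7.82 TPM). Mcm3 (72.3, 17.0 and 19.9 TPM, log2 fold change -1.96) and Mcm6 (86.2, 10.5 and 16.6 TPM, -2.71) lay between.

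The loaders of the helicase were unequal. Cdc6, the ATPase that acts with ORC in loading Mcm2-7, was at 13.9, 0.952 and 1.29 TPM, with 822, 50 and 72 reads. Cdc6 fell by 3.54 on the log2 scale (-4.05 to -3.08) in spinal cord monocytes. Cdt1, its partner, was at 37.2, 16.8 and 12.1 TPM, and its change of -0.93 (-1.10 to -0.77) was not called in spinal cord monocytes, while in APCs it fell by 1.31 (-1.48 to -1.13). Gmnn, which encodes geminin, the inhibitor of Cdt1, gave a Cdt1 to Gmnn ratio of TPM of 0.501 in marrow, 1.19 in spinal cord monocytes and 0.868 in APCs. It was chosen for mention after its values were seen. Orc6, the smallest ORC subunit, was at 24.8, 11.8 and 11.9 TPM (-0.86, not called). Orc1, the ORC subunit whose protein cycles in human cells, was the least abundant member everywhere, at 1.49, 0.490 and 0.521 TPM from 88, 26 and 30 reads, and was not active in any library.

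Origin firing genes divided along the same line. Cdc45, the helicase activator, was at 36.5, 2.30 and 3.18 TPM and fell by 3.68 (-4.10 to -3.30) in spinal cord monocytes and by 3.21 (-3.55 to -2.90) in APCs. Mcm10, an initiation factor that is no part of the hexamer, was at 13.3, 1.40 and 1.10 TPM (-3.35, -3.84 to -2.91). Cdc7, the kinase that triggers firing, was at 6.97, 1.15 and 1.42 TPM and fell by 2.17 (-2.67 to -1.72). Its regulatory subunit Dbf4 was at 29.6, 11.8 and 12.5 TPM, and its change of -1.10 (-1.28 to -0.92) was not called. Of the GINS genes, Gins1 (22.0, 5.41 and 6.93 TPM) fell by 1.88 (-2.33 to -1.47) in spinal cord monocytes, and Gins3 (6.87, 2.19 and 2.52 TPM) fell by 1.67 (-2.13 to -1.23), a call lost with reads per effective length (-1.39). Gins2 rested on 345, 110 and 123 reads, and its change of -1.16 (-1.54 to -0.80) was not called.

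The sliding clamp and its loader stood out as the least changed role, with 2 of 5 genes called lower and a median log2 fold change of -0.92. Pcna, the clamp that holds polymerases on DNA and also serves in repair, was the most abundant member in all 3 libraries, at 288, 195 and 148 TPM. Its changes of -0.29 (-0.35 to -0.22) in spinal cord monocytes and -0.60 (-0.66 to -0.53) in APCs were not called. Pcna alone made up 13.8% of the summed level of the 45 genes in marrow, 33.7% in spinal cord monocytes and 27.8% in APCs, so a summed score of these genes leans on it most in the spinal cord. Among the small subunits of the loader RFC, Rfc4 fell by 2.32 (-2.71 to -1.95), from 30.1 to 4.83 TPM, and stood at 4.68 TPM in APCs. Rfc5 (22.5, 9.06 and 7.62 TPM) fell by 1.41 (-1.65 to -1.18), a call lost with reads per effective length (-1.07). Rfc2 (-0.66) and Rfc3 (16.6, 7.32 and 7.33 TPM, -0.92) were not called.

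The 6 polymerase and primase genes spanned nearly the full range of the list. Pole, the catalytic subunit of the leading strand polymerase epsilon, was at 10.2, 0.643 and 1.67 TPM and fell by 3.60 (-4.01 to -3.22) in spinal cord monocytes and by 2.81 (-3.11 to -2.52) in APCs. Pold1, the catalytic subunit of polymerase delta, was at 20.3, 5.62 and 7.10 TPM and fell by 1.57 (-1.79 to -1.36). Prim1, the primase that lays down RNA primers, was at 27.5, 3.06 and 5.36 TPM (-2.85, -3.26 to -2.47), whereas the large primase subunit Prim2 was at 17.3, 6.20 and 9.23 TPM (-1.15, -1.42 to -0.88, not called). Pola2, the regulatory subunit of polymerase alpha, was the least changed of all members, at 21.0, 18.2 and 16.2 TPM. Its change of -0.23 (-0.42 to -0.05) turned to 0.04 with reads per effective length. For Pola1, the catalytic subunit, the scale decided the result, as given with the effective lengths below.

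The genes that finish the lagging strand were all called lower in spinal cord monocytes. Lig1, which seals Okazaki fragments, was at 56.7, 14.2 and 27.9 TPM, with a change of -1.91 (-2.07 to -1.75) in spinal cord monocytes and one of -1.05 (-1.17 to -0.93) in APCs that was not called. Fen1, the flap endonuclease, was at 39.6, 13.4 and 13.7 TPM (-1.23, -1.40 to -1.06). Rpa2, a subunit of the single-strand binding protein RPA, was at 28.2, 8.95 and 7.45 TPM (-1.37, -1.63 to -1.13).

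Nucleotide supply fell in all 4 genes and in both spinal cord libraries. Rrm2, the S phase subunit of ribonucleotide reductase, was the third most abundant member in marrow at 117 TPM and was at 5.72 and 6.17 TPM in spinal cord monocytes and APCs, changes of -4.06 (-4.31 to -3.82) and -3.88 (-4.11 to -3.67). Its partner Rrm1 was at 93.5, 12.7 and 17.2 TPM (-2.70, -2.84 to -2.57), so that the Rrm1 to Rrm2 ratio of TPM went from 0.802 in marrow to 2.23 and 2.79. Tk1, the thymidine kinase of the salvage route, was at 31.3, 3.27 and 3.91 TPM and fell by 2.82 (-3.23 to -2.43). Tyms, the thymidylate synthase, was at 74.3, 10.6 and 12.1 TPM and fell by 1.83 (-2.07 to -1.59) on reads and by 2.56 on reads per effective length.

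Of the genes that copy chromatin and its methylation, Uhrf1 changed most. It encodes the reader of hemimethylated DNA and was at 46.9, 3.93 and 6.95 TPM, changes of -3.30 (-3.53 to -3.07) and -2.42 (-2.59 to -2.26) in spinal cord monocytes and APCs. Dnmt1, the maintenance methyltransferase that it recruits, was at 79.4, 15.4 and 22.9 TPM (-2.03, -2.12 to -1.93, and -1.41, -1.49 to -1.33). Chaf1a, the large subunit of the histone chaperone CAF-1, was at 23.0, 3.39 and 3.22 TPM and fell by 2.74 (-3.04 to -2.46). Chaf1b, the middle subunit, was at 17.1, 6.78 and 8.23 TPM, and its change of -1.09 (-1.36 to -0.82) was not called.

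The regulators changed most of all roles, with a median log2 fold change of -3.29 in spinal cord monocytes. Ccne2, one of the cyclins that drive Cdk2 at the G1/S border, was at 31.3, 1.12 and 1.36 TPM and fell by 4.01 (-4.49 to -3.58). Ccne1 was at 16.6, 2.48 and 5.47 TPM (-2.40, -2.81 to -2.02). The atypical E2F repressors, which are themselves E2F targets, fell in both spinal cord libraries. E2f7 went from 808 reads to 28 and 54 reads (8.11, 0.616 and 0.727 TPM), the largest change of the list on reads at -4.34 (-5.02 to -3.74). Its effective length was 4666 bases in marrow and 2369 in spinal cord monocytes, and per effective length its change was -3.46, smaller than that of Ccne2, the largest on that scale at -4.55. E2f8 was at 49.3, 4.02 and 3.25 TPM (-3.56, -3.80 to -3.32).

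The activator E2Fs went apart. E2f2 was the second most abundant member in marrow, with 10577, 927 and 454 reads and 118, 11.5 and 4.85 TPM, and fell by 3.03 (-3.15 to -2.92) in spinal cord monocytes and by 4.21 (-4.38 to -4.06) in APCs. E2f1 was at 17.1, 9.37 and 15.2 TPM, and its changes of -0.53 (-0.72 to -0.34) and 0.13 (-0.03 to 0.29) were not called. The ratio of E2f1 to E2f2 TPM was 0.144 in marrow, 0.814 in spinal cord monocytes and 3.13 in APCs. E2f1 was the only member whose median fold change in APCs against marrow was above 0 on reads.

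Between the spinal cord populations, 0 of the 37 active members were called higher and 0 lower, in a comparison where 1.93% of the 9734 active genes were called higher and 1.70% lower. The median log2 fold change of APCs against spinal cord monocytes was 0.22, against -0.04 over all active genes. The interval lay above 0 for 17 of the 37 (45.9%) and below 0 for 3, where 28.4% of all active genes lay above and 36.5% below. The largest positive values among the active members were those of Uhrf1 at 0.87 (0.61 to 1.15), Lig1 at 0.85 (0.68 to 1.03) and Prim1 at 0.74 (0.28 to 1.22). Pole at 0.79 (0.32 to 1.27) and E2f7 at 0.77 (0.02 to 1.57) were not active in either spinal cord library. All 6 helicase genes were between 0.29 for Mcm4 and 0.65 for Mcm6. E2f2 went the other way at -1.19 (-1.38 to -0.99), just short of a call, with Cdt1 at -0.37 (-0.58 to -0.17) and Pcna at -0.31 (-0.39 to -0.24).

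Markers of other cell types were summed for the same libraries, and their part in the replication values was not tested. The 9 T cell markers came to 2.51, 62.0 and 113 TPM, with Cd3g and Cd4 at 0 reads in marrow, and 0 of the 8 active ones were called between the spinal cord libraries. The 7 microglia markers came to 226, 483 and 941 TPM, with Sall1 and Slc2a5 at 0 reads in marrow, and 6 of 7 were called higher in the APC library than in cord monocytes. Of the dendritic cell markers (40.9, 36.5 and 72.7 TPM), 3 of 6 active ones were called higher in APCs, and Siglech is on both of these lists. Flt3, which is also on the myeloid progenitor list below, made up most of the marrow sum (37.8, 3.65 and 6.65 TPM). In spinal cord against bone marrow monocytes Flt3 was called lower (-3.04), while 3 of the 4 active dendritic cell markers were called higher. The 9 neutrophil markers went from 7008 TPM in marrow to 1095 and 1221 TPM. Most of that sum was S100a8 (4471, 678 and 498 TPM) and S100a9 (2244, 345 and 441 TPM). Ly6g, the antigen excluded in the sorts, was at 2.57, 1.71 and 1.64 TPM and was not active. Of the 8 active in spinal cord against bone marrow monocytes, 5 were called lower and 3 higher. Between the spinal cord libraries 3 of 8 were called higher in APCs, namely Ngp (24.3 and 157 TPM), Ltf (9.76 and 34.1 TPM) and Retnlg (16.7 and 57.9 TPM). Erythroid markers came to 1.94, 148 and 50.4 TPM, with 3 of 4 active ones called lower in APCs than in spinal cord monocytes. Markers of endothelial cells came to 17.2, 75.2 and 46.3 TPM, those of oligodendrocytes and astrocytes to 75.4, 53.9 and 49.8 TPM, those of natural killer cells to 0.132, 3.72 and 7.70 TPM and those of B and plasma cells to 9.96, 3.86 and 3.87 TPM, with 0 genes called between the spinal cord libraries.

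For 3 members the effective length, which quantification assigns to a gene from its transcripts, differed by over 2-fold between the spinal cord libraries. Pola1 had an effective length of 4479 bases in marrow, 1364 in spinal cord monocytes and 5096 in APCs. Its reads of 2156, 297 and 376 gave a change of -2.38 (-2.59 to -2.17) in spinal cord monocytes. From reads per effective length the change was -0.76, which was not called, and its levels were 22.5, 11.2 and 3.54 TPM. Rfc2 had effective lengths of 964, 924 and 3726 bases, with 2204, 1000 and 1112 reads. Its reads did not differ between APCs and spinal cord monocytes (0.00, -0.15 to 0.14), yet its levels were 107, 55.8 and 14.3 TPM and the change per length was -1.88. Gins2 had effective lengths of 875, 837 and 3650 bases, with a change of 0.00 (-0.43 to 0.44) on reads and -1.99 per length at 18.5, 6.79 and 1.62 TPM. On the per-length scale these 3 genes were the ones called lower in APCs against spinal cord monocytes, where 3.29% of active genes were called lower and 2.38% higher. The APC table lists 22242 genes, whereas 54432 are listed for each monocyte library, so its gene set differs from theirs. That difference touches every comparison with the APC library, and its part in the values was not tested. The short length of Pola1 was in spinal cord monocytes, whose table lists as many genes as that of marrow. For these 3 genes a change in level cannot be told apart from a change in the transcripts counted.

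Within complexes, calls differed among subunits. In ORC, Orc2 to Orc5 were not members and 0 of 4 were called, with log2 fold changes in spinal cord monocytes of -1.01 for Orc2 and 0.03 for Orc4. In polymerase epsilon, Pole2 fell by 2.06 (-2.52 to -1.63), whereas the histone-fold subunits Pole3 (23.6, 16.4 and 20.1 TPM, -0.25) and Pole4 (31.7, 38.9 and 26.9 TPM, 0.55) were not called. In polymerase delta, Pold2 fell by 1.36 (-1.64 to -1.09), whereas Pold3 (-0.43) and Pold4 (81.6, 112 and 130.5 TPM, 0.65) were not called. RPA fell in all 3 subunits, with Rpa1 at -1.85 and Rpa3 at -1.38, and the large RFC subunit Rfc1 fell by 1.51. Rrm2b, the damage-induced form of the small reductase subunit, was at 10.1, 5.26 and 4.54 TPM, and its change of -1.06 was not called. Rbbp4, the CAF-1 subunit that many chromatin complexes share, was at 129, 46.6 and 28.8 TPM (-1.01, not called), and Gins4 was at 37.3, 16.6 and 21.3 TPM (-0.85, not called). The partner list also holds Mcm8, Mcm9 and Mcmbp, which are not subunits of these complexes. Of its 18 active genes, 6 were called lower, Mcmbp (-1.31) among them, and the median was -0.93. With reads per effective length 6 were again called lower, but Mcmbp (-0.88) lost its call and Rbbp4 (-1.23) gained one.

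**Figure D4:**
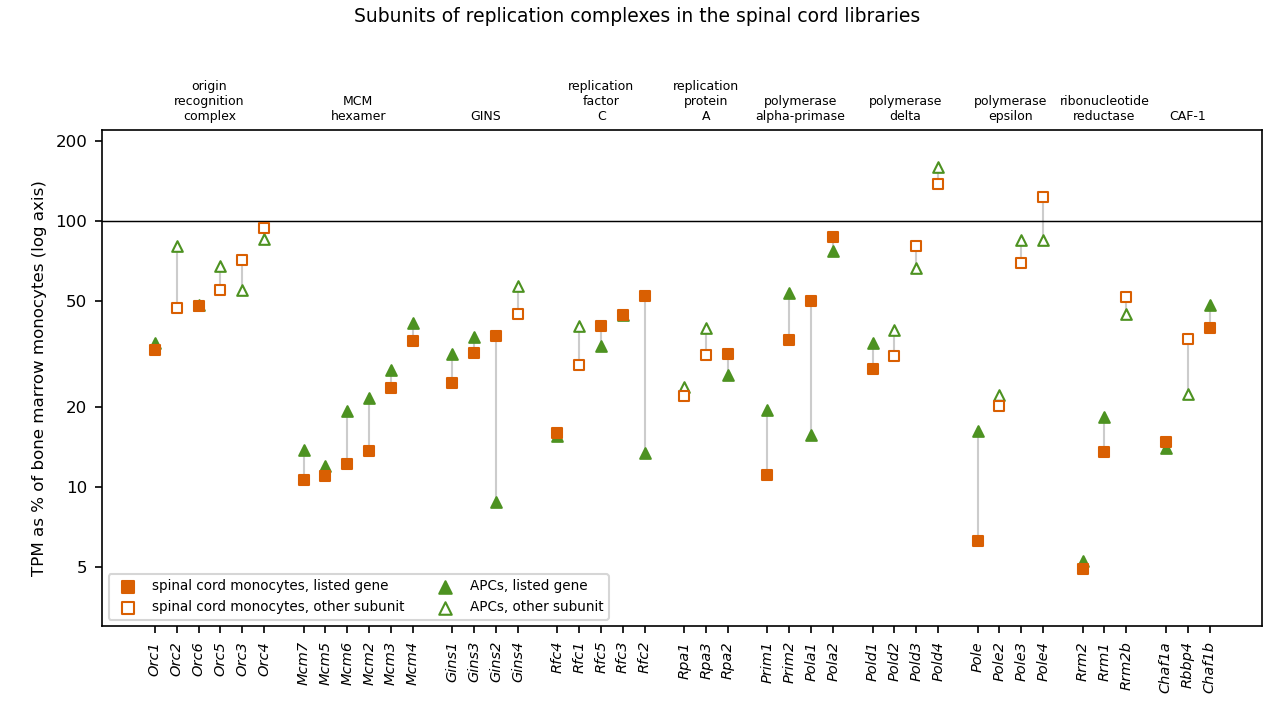
Level of each subunit of 10 replication complexes in spinal cord monocytes (squares) and APCs (triangles) as a percentage of its TPM in bone marrow monocytes, on a log axis. Filled symbols are listed genes and open symbols are other subunits. Rrm2 lies lowest at 4.91% and 5.29%, and Pold4 lies highest at 138% and 159.9%.

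Other cell cycle lists placed these values in a range. The mitosis list, with Top2a, Kif11 and Ttk as its members of largest change (-4.0, -4.37 and -4.39), was called lower in 30 of 30 genes with a median of -3.44, deeper than the -2.10 of the replication genes. Whether these medians differ beyond chance was not tested. Other fork and checkpoint genes were called lower in 21 of 37 active genes with a median of -1.60, led by Esco2 (-3.93), Clspn (-3.90) and Asf1b (-3.60), which serve cohesion, the checkpoint and histone supply. Of the retinoblastoma family and its E2F partners, 9 of 17 active genes were called lower, with Ccna2, the S phase cyclin, at -4.13. Ccna1 had 0 reads in all 3 libraries, which allows at most 0.158, 0.177 and 0.160 TPM (3 reads). Of the G1 cyclins and CDK inhibitors, 3 of 9 active genes were called higher and 3 lower, and the inhibitor Cdkn1a, which encodes p21, rose from 26.9 TPM to 612 and 452 TPM (4.85, 4.74 to 4.96, in spinal cord monocytes). The G1 cyclin Ccnd1 rose from 2 reads in marrow to 956 and 1601 reads, and Ccnd2 from 17 reads to 1715 and 3159 reads. The genes called lower, named after their values were seen, were Ccnd3, the most abundant G1 cyclin in all 3 libraries (326, 48.1 and 44.2 TPM, -2.37), and the CDK inhibitors Cdkn2c (-3.58) and Cdkn2d (-2.10).

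**Figure D5:**
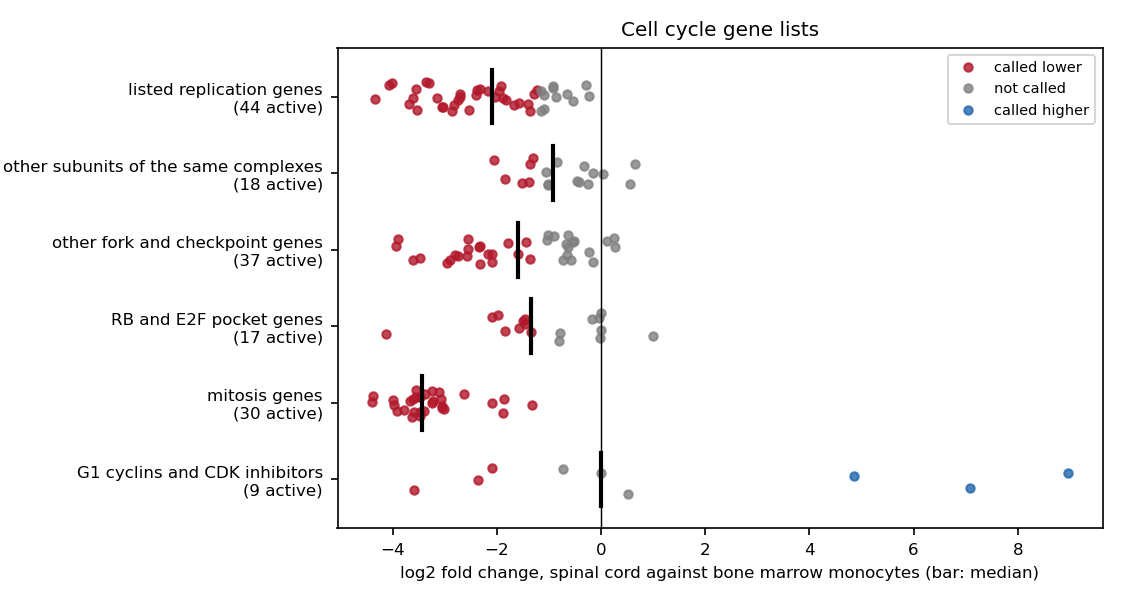
Log2 fold change in spinal cord against bone marrow monocytes for active genes of the replication list and of 5 other cell cycle lists, with a bar at each median. The medians run from -3.44 for mitosis genes to 0.00 for G1 cyclins and CDK inhibitors, and the replication genes lie at -2.10.

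Markers of early myeloid cells were split, with most but not all active ones lower in spinal cord monocytes. The 12 genes of myeloid progenitors and primary granules summed to 717, 95.9 and 88.5 TPM. Of the 10 active genes, 8 were called lower and 2 higher in spinal cord monocytes. Elane, the neutrophil elastase of promyelocytes, was at 172, 3.50 and 0.849 TPM, and Myb, a factor of dividing progenitors, was at 8.99, 0.380 and 0.417 TPM. Cd34 and Sox4, also on that list, rose, from 3.03 and 0.722 TPM in marrow to 12.5 and 5.80 TPM in spinal cord monocytes. Kit, the stem cell factor receptor, was at 0.208, 1.70 and 6.92 TPM, a rise between the cord libraries that was called. Gfi1 was at 0.648, 2.94 and 1.68 TPM and was not active in any library. No marker of the list was at 0 reads in any library, and the part of such cells in the replication genes' levels was not tested. Tissue, mouse pool, enrichment kit and digestion all differ between the marrow and spinal cord libraries, and their effects cannot be told apart.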

How the data were processed

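RNA of the pooled, sorted cells was purified on RNeasy Plus columns, and polyadenylated RNA was made into libraries by a KAPA HyperPrep protocol (input 300 ng, 11 PCR cycles). Per the labels, the authors quantified genes with Salmon 0.14.1, with build mm10 named in the submitters' processing notes. They deposited TPM, estimated counts and an effective length for each gene, 1 table per library. Whether the counting used strand is not given in the sources used here, so overlapping antisense transcripts may share reads.

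The members and lists were chosen with earlier results of these data known. The 22238 genes common to the 3 tables were kept, TPM was rescaled over them to its usual total (they held 84.9%, 85.3% and 100.0% of the deposited TPM of the marrow, cord monocyte and APC libraries), and symbols were matched for 99.0% of IDs. Estimated counts were rounded to whole numbers, and size factors were 1.205, 0.863 and 0.962. Since there is 1 library per group, no replicate test was run. The fold change was the median of the ratio of gamma posteriors of the counts plus 1, after the authors' stated use of GFOLD, and a call needed the 98% interval beyond 2-fold and over 3 TPM in at least 1 library. Levels carry 95% Wilson intervals. The script was tested on simulated data. Alternatives were scaling, filter, added reads, effective length and an assumed spread between samples. Genes named were all members, subunits of their complexes with the rest of that list, and markers. From each other list, the 3 called genes of largest change and those at or under 3 reads throughout were named. Python 3.11.15 with numpy 2.4.6, scipy 1.17.1 and matplotlib 3.10.9, and R 4.3.3 with edgeR 4.0.16 for TMM factors were used.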

Additional observations from a re-analysis of the deposited data

How the results depend on the processing

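The direction of the member medians was kept in all 3 comparisons under every alternative run, and no called gene reversed. With 1 library per group the spread between animals is unknown. An assumed coefficient of variation of 0.4 between samples left 12 members called lower in spinal cord monocytes and 8 in APCs, both against marrow. One of 0.2 left 24 and 19, by construction from wider intervals. Over all active genes, 218 of 10072 and 222 of 10190 were called lower at 0.4, and 445 and 488 at 0.2. On log2 of TPM + 0.1 the medians were -2.43 and -2.28, and on log2 of TPM + 1 the APC median was -2.07. With all genes of the monocyte tables the median was -2.35. Between APCs and spinal cord monocytes, 3 members were called lower per effective length and 1 with a plain 2-fold rule. On either log2 TPM scale 4 were called lower, and TPM + 0.1 also called 1 higher. Of all 9734 active genes, 320 were called lower per effective length and 302 with the plain rule. On TPM + 1 and TPM + 0.1, 528 and 617 were called lower, and TPM + 0.1 called 351 higher. The summed level of the members in TPM as deposited was 1776 in marrow, 493 in spinal cord monocytes and 532 in APCs, which turns the order of the spinal cord libraries. Scaling by total reads moved the median of all active genes from -0.15 to -0.33 and that of the members from -2.10 to -2.28. Of single-gene values against marrow in spinal cord monocytes, 525 kept their side of the threshold, 25 gained a call and 35 lost it. No paired analysis was possible because each group has 1 library, although the 2 cord populations were read as coming from the same pooled mice.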

Other observations

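The annotation at hand for build GRCm38 lists transcripts of very different length for Pola1, Rfc2 and Gins2, whose effective lengths differed by over 2-fold between the spinal cord libraries. Gins2 has a protein-coding transcript of 3900 bases beside a processed transcript of 473 bases and retained-intron transcripts of 511 and 3662 bases. Its effective lengths of 875, 837 and 3650 bases belong to marrow monocytes, cord monocytes and the APC library. The deposited gene-level tables do not resolve the transcripts.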
